A study of Mus musculus with 18 samples.

Results

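Oxidant production by the colon epithelium was not measured, and only the RNA of 8 genes tied to it was read in bulk libraries. These genes were *Duox2*, *Duoxa2*, *Nox1*, *Noxo1*, *Noxa1*, *Nos2*, *Gpx2* and *Cybb*. They were taken by symbol from a count table of 36757 genes in 18 libraries. All 8 were found, and all 8 passed the filter on low counts in every comparison. NADPH oxidases move electrons across a membrane onto oxygen and so make superoxide or hydrogen peroxide, whereas nitric oxide synthases make nitric oxide from arginine. In the gut these oxidants act at the mucosal surface, where they restrain bacteria and serve as signals, and glutathione peroxidases such as *Gpx2* remove the peroxides on the cell side. *Cybb* encodes the catalytic subunit of the oxidase of phagocytes and was the one gene of the 8 that is best known from immune cells rather than from epithelium.

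The libraries were bulk RNA-seq of colorectal tissue or organoids of C57BL/6 mice, 3 in each of 6 groups, of wild type (WT, RNF138 fl/fl in the treatment protocol) or RNF138-/- genotype. RNF138 is a RING finger ubiquitin ligase, and the study asked how its loss alters chronic colitis and the cancer that follows it. For colitis, mice of 6 to 8 weeks drank 2% dextran sulfate sodium (DSS) for 7 days and then water for 14 days. The cycle was repeated 2 times and tissue was taken 4 weeks after the last one. For colitis-associated colorectal cancer (CAC), 10 mg/kg of the mutagen azoxymethane (AOM) was injected 4 days before the DSS cycles. Organoids were cultured in matrigel from tumor-bearing fragments of the CAC model. Every group had therefore been exposed to DSS or grown from mice that were, and no untreated colon was analysed here. Which exons the RNF138-/- allele lacks, whether animals were pooled and whether the 3 libraries of a group came from separate animals are not given in the sources used here. Replicates differed beyond counting noise, with a chi-square per degree of freedom of 7.44 to 143.5 between libraries of a group. p-values measure that spread between libraries, and how much of it is technical is not known.

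*Rnf138* RNA did not separate the genotypes as labelled. It stood at 15.6 to 25.1 CPM (counts per 1000000 counts of the library) in WT colitis libraries and at 17.99 to 19.4 in those labelled RNF138-/-. In CAC it stood at 21.5 to 27.6 and 39.7 to 45.8 CPM, and in organoids at 37.7 to 55.7 and 42.8 to 50.3 CPM. RNF138-/- below is thus the label of a library. Library totals ran from 11514716 to 24390082 counts. *Hoxb13*, a gene of the most distal colon, stood at 4.86 and 7.84 CPM in RNF138-/- colitis replicates 2 and 3 and at 4.64 in WT CAC replicate 3, against 56.8 to 256 in the other libraries. In colitis these position genes and genotype moved together. *Hoxb13* was at 74.0 CPM in RNF138-/- replicate 1 and at 114.6 to 182.3 in WT, and the sum of 3 genes of hindgut position at 23.9 to 126.7 against 168.9 to 251.3. The part of position in the colitis differences below was not tested. All tissue libraries and the RNF138-/- organoids carried 1911 to 5315 counts on 4 Y-linked genes, and the 3 WT organoid libraries carried 0 with 4924 to 6881 counts of *Xist*. Sex and genotype cannot be told apart in organoids, and *Nox1* and *Cybb* are X-linked. Sex also cannot be told apart from the step from CAC to organoids in WT. The same holds for the differences of genotype effects that involve organoids. The epithelial marker *Epcam* was present in every library at 826.9 to 2179 CPM. Organoids also held fibroblast marker RNA, summed over 6 genes to 9097 to 49680 CPM against at most 1733 in tissue. The RNF138-/- CAC libraries held 113.3 to 242.2 CPM of 6 smooth muscle markers against 2508 to 8388 in WT CAC. In bulk libraries such as these, fewer cells of a type and less RNA per cell cannot be told apart.

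**Figure D1:**
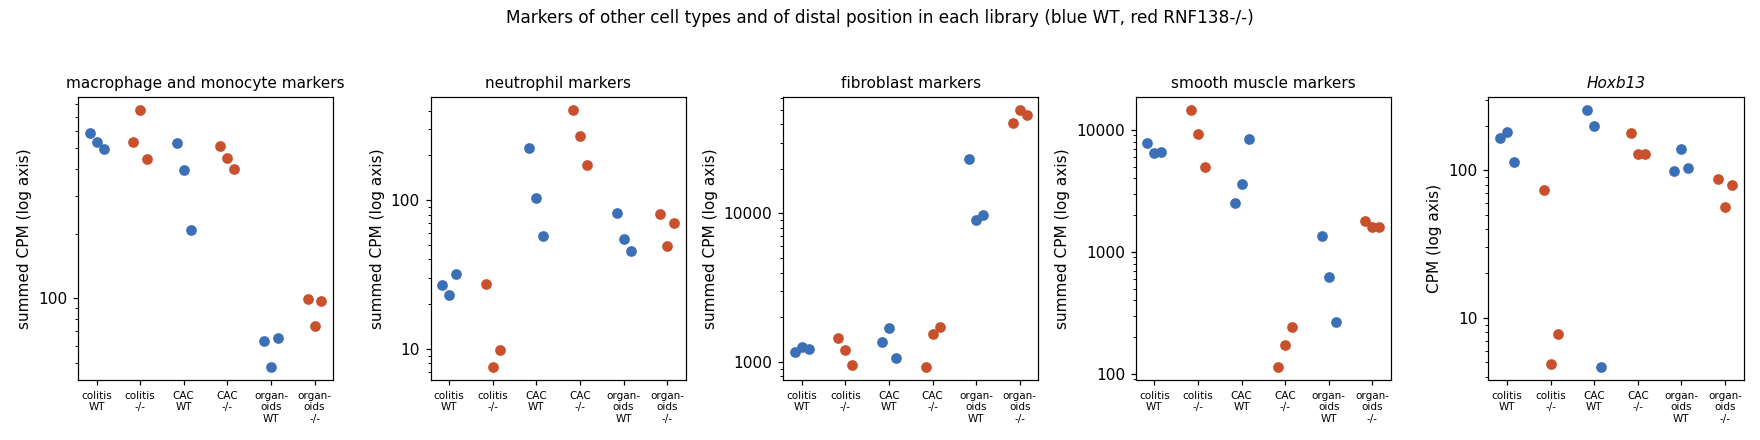
Summed CPM of marker genes of macrophages and monocytes, neutrophils, fibroblasts and smooth muscle, and CPM of *Hoxb13*, each on a log axis for the 18 libraries (points; blue WT, red RNF138-/-). Fibroblast markers reached 9097 CPM or more in organoids, smooth muscle markers were lowest in RNF138-/- CAC, and *Hoxb13* was under 8 CPM in 2 RNF138-/- colitis libraries and 1 WT CAC library.

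A gene was called when edgeR's quasi-likelihood test gave a Benjamini-Hochberg adjusted p under 0.05 together with a change of 2-fold or more. None of the 8 genes was called between genotypes. The background share called was 0.0902% of 16623 genes in colitis, 5.37% of 17752 in CAC and 15% of 15294 in organoids. At an unadjusted p under 0.05 the numbers were 3, 1 and 1 of 8, against 10.4%, 33.8% and 47.4% of all genes, and DESeq2 called 3, 0 and 0, against 2.06%, 13.9% and 15.2% of all genes. One edgeR fit of all 18 libraries called 1 of 8 in colitis and 1 of 8 in CAC, against 0.0619% and 14.6% of all genes. In CAC and organoids no gene of the 8 had RNF138-/- and WT libraries that did not overlap in CPM, while 45.2% and 53.2% of all genes did. The median log2 fold change of the 8 was 0.51 in colitis, 0.45 in CAC and 0.10 in organoids, beside medians of 0.02, 0.01 and -0.04 over all genes tested. From colitis to CAC, 3 of 8 genes were called in WT, all higher, against 9.78% of all genes called higher, and 1 of 8 in RNF138-/-, against 17.5%. From CAC to organoids, 5 of 8 were called lower in WT and 7 of 8 in RNF138-/-, against 26.8% and 26.5% of all genes called lower. The medians of the 8 in those 2 comparisons were -1.98 and -1.99, and those of all genes -0.14 and -0.22.

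Scaling by total counts in place of the trimmed mean of M values (TMM) moved the median of all genes by -0.62 log2 units in organoids against CAC in RNF138-/-, by -0.17 in the same comparison in WT, by 0.31 in CAC against colitis in RNF138-/-, by 0.26 between genotypes in CAC and by -0.20 between genotypes in organoids. The share of all calls that were higher went from 40.3% to 21.1% in the first of these, from 47.1% to 62.0% in the third and from 53.0% to 36.1% in the last. For the differences between genotype effects it went from 29.9% to 44.1% (CAC minus colitis), from 56.1% to 27.2% (organoids minus CAC) and from 63.6% to 35.2% (organoids minus colitis). No called change of the 8 genes turned direction under that scaling. Changes of less than these shifts are not read as a direction below.

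**Figure D2:**
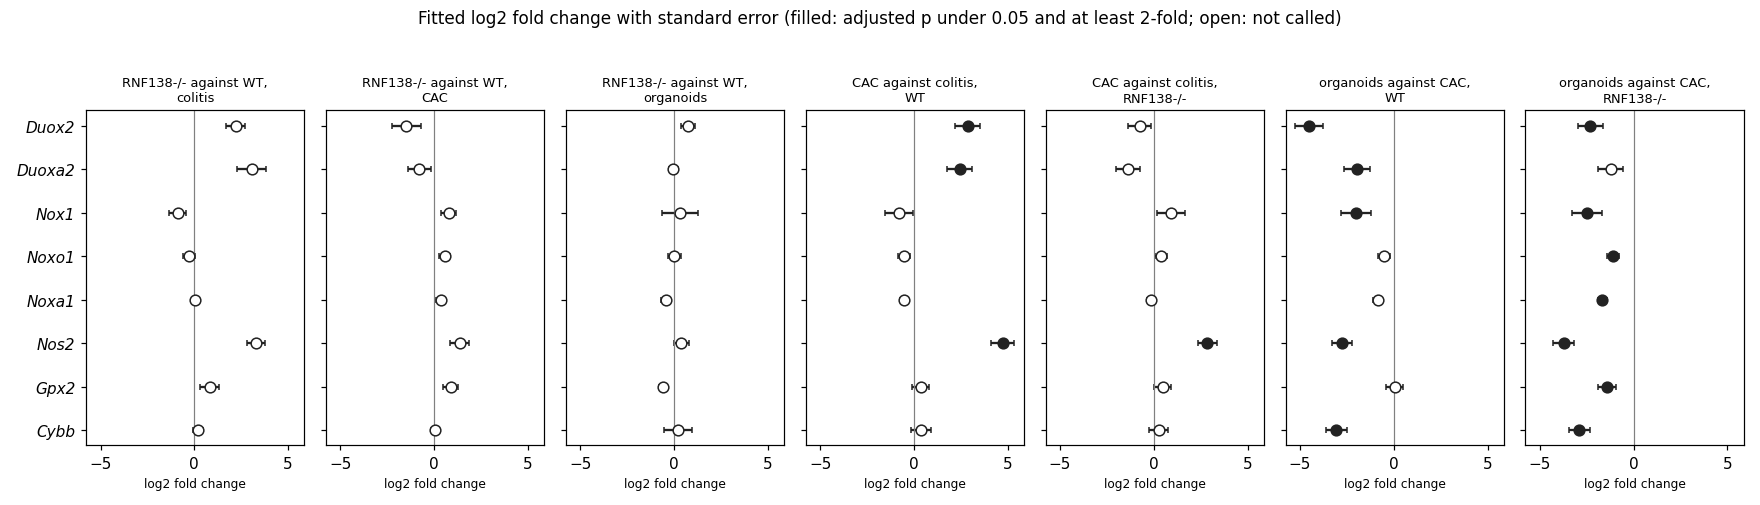
Log2 fold change of each of the 8 genes with its standard error (edgeR, linear axis), for the genotypes within each model and for the models within each genotype. Filled points passed an adjusted p of 0.05 with at least a 2-fold change. The 3 genotype panels hold open points alone, and filled points lie to the right in CAC against colitis and to the left in organoids against CAC.

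*Duox2* and *Duoxa2* form a working pair. *Duox2* encodes dual oxidase 2, which sits in the apical membrane of colonocytes and releases hydrogen peroxide into the lumen, and *Duoxa2* encodes the maturation factor that lets it leave the endoplasmic reticulum. In the GENCODE annotation of mm10, *Duox2* (ENSMUSG00000068452.7) lies on the minus strand at chr2:122279247-122298449 and *Duoxa2* (ENSMUSG00000027225.7) on the plus strand at chr2:122298900-122302885. Their starts face away from each other, 451 bases apart. Because the pair shares this short interval, the 250 bases before the *Duoxa2* start are shown, from the RefSeq table of build GRCm38.p6 on the plus strand, at chr2:122298650-122298899. The capitals mark 2 motif matches, TGANTCA, where N is any base, at bases 83 to 89 and TATAAA at bases 221 to 226 of the window, which do not overlap.

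*Duoxa2* upstream window: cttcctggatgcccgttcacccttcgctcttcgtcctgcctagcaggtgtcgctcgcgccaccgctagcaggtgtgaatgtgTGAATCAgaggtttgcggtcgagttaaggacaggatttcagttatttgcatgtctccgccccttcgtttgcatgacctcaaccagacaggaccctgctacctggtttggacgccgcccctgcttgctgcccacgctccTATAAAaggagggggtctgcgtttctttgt

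Both strands were searched. Of 32851 such 250-base windows in the table, 6.75% held TGANTCA and 12.4% held TATAAA. The window held no match to TTCNNNGAA (the STAT motif, 7.02% of windows), to the interferon-stimulated response element (2.98%) or to the NF-kB motif (7.25%). A match is a run of letters and not a bound site. Among the other members with a window, *Cybb* held TGANTCA and the interferon-stimulated response element, and *Nox1* and *Noxa1* held the NF-kB motif. *Nos2* had no entry.

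In WT colitis *Duox2* was at 71.6, 135.9 and 60.6 CPM in replicates 1 to 3, and in RNF138-/- colitis at 676.4, 377.8 and 186.3. *Duoxa2* was at 7.93, 24.6 and 4.95 CPM in WT and at 186.5, 98.1 and 29.4 in RNF138-/-. Every RNF138-/- colitis library lay above every WT one for both genes, and 8.87% of all genes lay apart in that direction. The fitted differences were 2.20 (SE 0.49) and 3.05 (SE 0.77) log2 units, or 4.61-fold and 8.31-fold, with edgeR adjusted p of 0.185 and 0.215. Without RNF138-/- replicate 3 they were 2.56 and 3.50, with adjusted p of 0.0233 and 0.0390, and without a filter on low counts 2.19 and 3.05, with adjusted p of 0.000672 and 0.000582. T cell markers (6 genes, 36.5 to 43.3 CPM in RNF138-/- colitis against 19.2 to 19.7 in WT) and fat markers (4 genes, 9.99 to 47.7 against 1.80 to 3.91) also lay apart, and their part in these differences was not tested. Without RNF138-/- replicate 1 the differences were 1.66 for *Duox2* and 2.35 for *Duoxa2*, and without WT replicate 2 that of *Duoxa2* was 4.00, none of them called. The call changes with the settings named, while both genes kept their direction under every alternative run.

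In WT CAC *Duox2* stood at 314.9, 208.4 and 1428 CPM and *Duoxa2* at 57.1, 25.2 and 120.3. Replicate 3, the one low in *Hoxb13*, was the highest for both genes. Its *Krt20*, a keratin of mature surface colonocytes, was also the highest at 2231 CPM, against 442 and 742.4 in the other WT CAC libraries. In RNF138-/- CAC *Krt20* was at 233.4, 49.7 and 93.0 CPM, below every WT CAC library, and the sum of 10 epithelial markers was 7831 to 9822 CPM against 10770 to 21510 in WT CAC. The part of position, maturity and epithelial content in the CAC levels was not tested. In RNF138-/- CAC *Duox2* was at 338.9, 243.2 and 147.3 CPM and *Duoxa2* at 60.5, 38.5 and 21.3, and both overlapped WT. The fitted genotype differences in CAC were -1.49 (SE 0.76, adjusted p = 0.212) and -0.81 (SE 0.61, adjusted p = 0.375). Without WT replicate 3 they were -0.13 and -0.06.

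The genotype difference itself differed between the models. For CAC minus colitis it came to -3.63 (SE 0.92, adjusted p = 0.0170) for *Duox2* and to -3.81 (SE 0.95, adjusted p = 0.0158) for *Duoxa2* in the edgeR fit of all 18 libraries, where 9.88% of all genes passed an adjusted p of 0.05 in that direction. *Duox2* lost the call without WT CAC replicate 3, at -2.32 with an adjusted p of 0.0545, and kept it at -2.67 (adjusted p = 0.0176) when RNF138-/- colitis replicate 3 was left out as well. *Duoxa2* kept it under each alternative, at -4.79 to -3.10 with adjusted p of 0.000284 to 0.0469. For organoids minus colitis *Duox2* was at -1.43 (adjusted p = 0.345) and *Duoxa2* at -3.07 (SE 0.95, adjusted p = 0.0599). *Duoxa2* passed there with library size scaling (-3.21, adjusted p = 0.0405), without a filter (-3.05, adjusted p = 0.00785), by DESeq2 (-3.08, adjusted p = 0.00986) and without WT colitis replicate 2 (-4.03, adjusted p = 0.0266) or RNF138-/- colitis replicate 3 (-3.53, adjusted p = 0.0245). For organoids minus CAC *Duox2* was at 2.20 (SE 0.90, adjusted p = 0.0882) and *Duoxa2* at 0.74 (adjusted p = 0.607). *Duox2* passed there without a filter (adjusted p = 0.0253), by DESeq2 (adjusted p = 0.0356) and without WT CAC replicate 2 (adjusted p = 0.0341). Without WT CAC replicate 3 it was 0.89 (adjusted p = 0.420), and *Duoxa2* was 0.03.

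Within WT both genes were higher in CAC than in colitis. The sums of neutrophil markers (57.8 to 225.2 CPM against 23.0 to 31.7) and fat markers (19.4 to 32.25 against 1.80 to 3.91) were also higher. That of macrophages and monocytes overlapped (208.7 to 530.2 against 495.5 to 590.7). The part of these cell types was not tested. *Duox2* rose by 2.86 (SE 0.67, 7.28-fold, adjusted p = 0.00734) and *Duoxa2* by 2.43 (SE 0.69, 5.38-fold, adjusted p = 0.0208). Without WT CAC replicate 3 the *Duox2* change was 1.55 (adjusted p = 0.0435) and that of *Duoxa2* 1.72 (adjusted p = 0.0773). *Duoxa2* also lost the call without WT colitis replicate 1 (2.17, adjusted p = 0.0931) or 3 (2.04, adjusted p = 0.0669), while without replicate 2 it was 3.34. In a fit of the 6 WT libraries of these models it was 2.44 and not called (adjusted p = 0.0674). Within RNF138-/- the changes from colitis to CAC were -0.77 for *Duox2* and -1.38 for *Duoxa2*, with adjusted p of 0.315 and 0.0836. *Krt20* was lower in RNF138-/- CAC (49.7 to 233.4 CPM against 750.7 to 1112 in colitis). So was the sum of 10 epithelial markers (7831 to 9822 against 13990 to 17590), while *Epcam* was higher (1425 to 1654 against 1190 to 1369). Their part in these changes was not tested. Without RNF138-/- colitis replicate 3 the *Duoxa2* change was -1.89, with an adjusted p of 0.0177, and it also passed without a filter on low counts (-1.39, adjusted p = 0.0250) and by DESeq2 (-1.43, adjusted p = 0.0441).

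In organoids *Duox2* was at 30.9, 11.7 and 42.8 CPM in WT and at 52.5, 41.0 and 53.6 in RNF138-/-, and *Duoxa2* at 20.9, 11.3 and 19.5 against 20.2, 16.1 and 15.2. *Duox2* lay below every CAC library in both genotypes, and the share of all genes that did so was not worked out. *Duox2* fell by 4.51 (SE 0.73, adjusted p = 7.58e-05) from CAC to organoids in WT and by 2.31 (SE 0.66, adjusted p = 0.00675) in RNF138-/-. *Krt20* was at 105.8 to 263.8 CPM in WT organoids, below WT CAC (442 to 2231), and at 180.1 to 267 in RNF138-/- organoids, which overlapped RNF138-/- CAC (49.7 to 233.4). Its part in the *Duox2* fall was not tested. *Duoxa2* fell by 1.96 in WT (SE 0.67, adjusted p = 0.0193) and was -1.22 in RNF138-/- (SE 0.66, adjusted p = 0.121). The RNF138-/- change passed with library size scaling (-1.83, adjusted p = 0.0158), without a filter (-1.23, adjusted p = 0.0485) and in a fit of those 6 libraries (-1.19, adjusted p = 0.0160). Without WT CAC replicate 3 the WT changes were -3.20 for *Duox2* and -1.25 for *Duoxa2*, and the second lost the call (adjusted p = 0.121), as it did without WT organoid replicate 2 (-1.73, adjusted p = 0.0735). Between genotypes in organoids neither gene was called (0.75 with adjusted p = 0.152, and -0.04 with adjusted p = 0.899). *Duox2* passed without WT organoid replicate 3, at 1.16 with an adjusted p of 0.0468.

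The pair did not keep 1 proportion. *Duoxa2* CPM divided by *Duox2* CPM was 0.0818 to 0.276 in the 6 colitis libraries and 0.0843 to 0.181 in the 6 CAC libraries. In organoids it was 0.283 to 0.959, above every tissue library, and the highest value came from WT replicate 2, where *Duox2* was lowest. Pearson's r of log2 CPM between the genes was 0.94 over the 12 tissue libraries and 0.88 over the 18 libraries as deviations from the group means, a description over libraries that share depth and cell makeup. Of all genes with a mean of at least 5 CPM, *Duox2* was the one most like *Duoxa2* across the 18 libraries (r = 0.83). *Duoxa2* shares 682 exon bases with *Duoxa1* on the opposite strand and 41.1% of its 50-base windows match elsewhere in the transcripts, mostly *Duoxa1*, which stood at means of 0.443 to 2.37 CPM. Reads in that overlap cannot be told apart with a kit that does not mark strand.

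**Figure D3:**
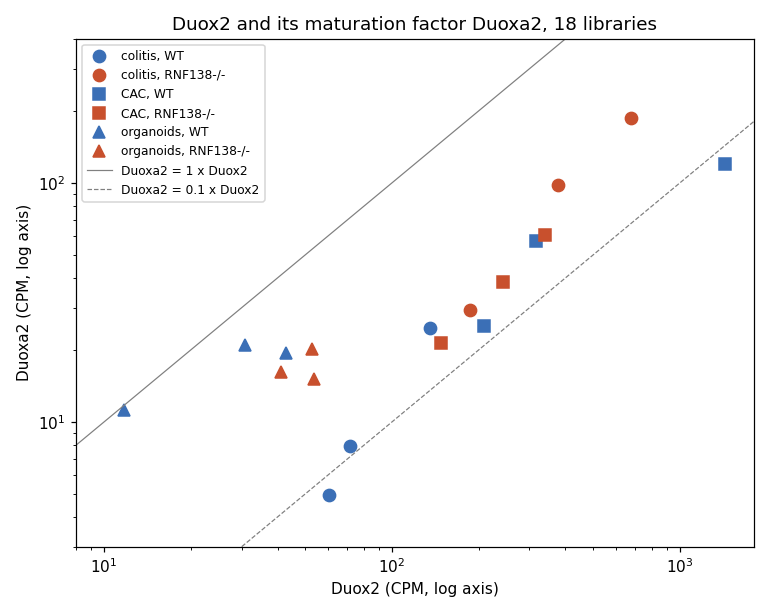
*Duoxa2* CPM against *Duox2* CPM on log axes, 1 point a library (circles colitis, squares CAC, triangles organoids; blue WT, red RNF138-/-). The lines mark equal CPM and 0.1 times. The tissue libraries lie in a band at ratios of 0.0818 to 0.276, and the 6 organoid libraries lie above it.

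*Nox1*, *Noxo1* and *Noxa1* form the superoxide-making oxidase of the colon epithelium, in which *Nox1* is the catalytic subunit, *Noxo1* the organizer and *Noxa1* the activator. *Nox1* (ENSMUSG00000031257.14, chrX:134086421-134221956, minus strand) was at 28.3, 34.3 and 29.3 CPM in WT colitis and at 20.4, 23.7 and 5.62 in RNF138-/- colitis. It was the one gene of the 8 with every RNF138-/- colitis library below every WT one, as 8.32% of all genes were, and its lowest value came from replicate 3, low in *Hoxb13*. The difference was -0.89 (SE 0.45, adjusted p = 0.552).

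In CAC *Nox1* stood at 12.9, 25.3 and 14.9 CPM in WT and at 45.9, 30.9 and 17.3 in RNF138-/-, a difference of 0.77 (SE 0.41, adjusted p = 0.225) with overlapping groups. In organoids it was at 1.21, 0.239 and 11.8 CPM in WT and at 6.11, 3.86 and 6.94 in RNF138-/-. WT organoid replicate 2 held 3 *Nox1* counts and replicate 3 held 175. From CAC to organoids *Nox1* fell by 2.00 in WT (SE 0.80, adjusted p = 0.0398) and fell by 2.48 in RNF138-/- (SE 0.80, adjusted p = 0.0137). The WT call was lost without WT CAC replicate 2 (-1.65, adjusted p = 0.113) and without WT organoid replicate 1 (-1.54, adjusted p = 0.137) or 2 (-1.45, adjusted p = 0.101), and the change was -4.53 without WT organoid replicate 3. It was also lost in a fit of those 6 WT libraries (-2.04, adjusted p = 0.142) and with the replicate number as a block (adjusted p = 0.0569). The RNF138-/- call was lost without RNF138-/- organoid replicate 2 (adjusted p = 0.0569). Between genotypes in organoids the difference was 0.31 (adjusted p = 0.824) with all libraries and 2.81 (adjusted p = 0.0130) without WT replicate 3. From colitis to CAC *Nox1* was not called, at -0.79 in WT (adjusted p = 0.488) and 0.92 in RNF138-/- (adjusted p = 0.310). Its differences of genotype effects were 1.71 for CAC minus colitis (adjusted p = 0.300), -0.48 for organoids minus CAC (adjusted p = 0.799) and 1.23 for organoids minus colitis (adjusted p = 0.525), and the last was 3.73 (adjusted p = 0.0283) without WT organoid replicate 3.

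*Noxo1* (ENSMUSG00000019320.13, chr17:24696234-24700529, plus strand) had low counts throughout, 16 to 127 a library. It stood at 2.81 to 4.77 CPM in colitis, 2.27 to 5.14 in CAC and 1.28 to 2.46 in organoids. Of its 3013 exon bases, 2122 overlap *Tbl3* on the other strand, so its level is uncertain. It fell by 1.10 from CAC to organoids in RNF138-/- (SE 0.32, adjusted p = 0.00789), under a 2-fold change when RNF138-/- CAC replicate 2 or RNF138-/- organoid replicate 2 was left out (-0.94 and -0.91), and was -0.53 in WT (adjusted p = 0.169). Between genotypes it was at -0.28 in colitis, 0.56 in CAC and -0.0039 in organoids (adjusted p = 0.816, 0.241 and 0.994), and from colitis to CAC at -0.52 in WT and 0.37 in RNF138-/- (adjusted p = 0.268 and 0.330). Its differences of genotype effects were 0.89 (CAC minus colitis), -0.57 (organoids minus CAC) and 0.32 (organoids minus colitis), with adjusted p of 0.196, 0.396 and 0.723.

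*Noxa1* (ENSMUSG00000036805.13, chr2:25085667-25095149, minus strand) was the steadiest of the 3 subunits in tissue. It was at 53.1 to 64.6 CPM in WT colitis, 55.8 to 65.6 in RNF138-/- colitis, 34.1 to 51.7 in WT CAC and 42.7 to 66.1 in RNF138-/- CAC. The organoid libraries, at 18.7 to 25.7 CPM in WT and 12.5 to 23.0 in RNF138-/-, all lay below the tissue libraries. The share of all genes that did so was not worked out. *Noxa1* fell by 1.67 from CAC to organoids in RNF138-/- (SE 0.23, adjusted p = 1.46e-05). In WT the change was -0.86 (SE 0.22, adjusted p = 0.00377), past the adjusted p and short of a 2-fold change. It was called without WT CAC replicate 1 (-1.002, adjusted p = 0.00263). Between genotypes *Noxa1* was at 0.02 in colitis, 0.34 in CAC and -0.46 in organoids (adjusted p = 0.982, 0.324 and 0.162), and from colitis to CAC at -0.52 in WT and -0.15 in RNF138-/- (adjusted p = 0.107 and 0.594). Its differences of genotype effects were 0.38 (CAC minus colitis, adjusted p = 0.447), -0.44 (organoids minus colitis, adjusted p = 0.418) and -0.82 (organoids minus CAC, adjusted p = 0.0725). The last passed with library size scaling (-1.30, adjusted p = 0.00958) and in 4 of the fits that left out 1 library, those without WT CAC replicate 3, RNF138-/- CAC replicate 3, WT organoid replicate 1 or RNF138-/- organoid replicate 1.

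*Nos2* encodes the inducible nitric oxide synthase, which inflamed epithelium and activated macrophages make. It (ENSMUSG00000020826.8, chr11:78920787-78960254, plus strand) was at 0.838, 2.13 and 1.18 CPM in WT colitis, from 15 to 38 counts, and at 19.4, 7.08 and 14.0 in RNF138-/- colitis. All RNF138-/- colitis libraries lay above all WT ones, as they did for 8.87% of all genes. The difference was 3.28 (SE 0.49, 9.68-fold), with an edgeR adjusted p of 0.0652. It passed at an adjusted p of 0.0429 in a fit of all 18 libraries, of 0.0312 without RNF138-/- replicate 3, of 2.39e-05 without a filter on low counts and of 3.56e-09 by DESeq2. The estimate lay between 2.93 and 3.80 in all alternatives, with adjusted p up to 0.407. The neutrophil marker sum was 23.0 to 31.7 CPM in WT colitis and 7.56 to 27.3 in RNF138-/- colitis, and the macrophage and monocyte sum 495.5 to 590.7 and 442.8 to 752.7. The T cell and fat markers given with *Duox2* lay apart between the same libraries. The part of these cell types in the *Nos2* difference was not tested.

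In CAC *Nos2* was at 34.2, 18.1 and 58.8 CPM in WT and at 147.2, 93.3 and 52.7 in RNF138-/-. The lowest RNF138-/- library lay under the highest WT one. The difference was 1.35 (SE 0.52, 2.54-fold, adjusted p = 0.128), and in a fit of all 18 libraries 1.41 with an adjusted p of 0.0493. The neutrophil markers *S100a8* (47.7 to 116.5 CPM in RNF138-/- against 15.8 to 36.2 in WT) and *S100a9* (63.4 to 153.8 against 20.5 to 43.6) did not overlap between these groups. The sum of all 7 neutrophil markers did, at 171.1 to 403.2 CPM in RNF138-/- and 57.8 to 225.2 in WT. Of the macrophage markers *Cd68* (21.6 to 28.3 CPM against 7.95 to 19.6) and *Itgam* (29.5 to 44.9 against 16.8 to 22.9) did not overlap, whereas *Adgre1* (13.0 to 17.3 against 8.24 to 14.7) and the sum of the 12 (401.9 to 512.4 against 208.7 to 530.2) did. The part of neutrophils and macrophages in the difference was not tested. In organoids *Nos2* stood at 8.94, 2.71 and 4.79 CPM in WT and at 5.62, 9.42 and 6.87 in RNF138-/-, a difference of 0.37 (SE 0.40, adjusted p = 0.493).

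*Nos2* was the gene of the 8 that changed most between colitis and CAC. It rose by 4.73 in WT (SE 0.60, 26.5-fold, adjusted p = 7.78e-05) and by 2.86 in RNF138-/- (SE 0.52, 7.24-fold, adjusted p = 0.000307). Each call held under all alternatives, at 4.23 to 5.15 and 2.33 to 3.21. In each genotype every CAC library lay above every colitis library. The share of all genes that lay apart so was not worked out. Of all genes, 9.78% were called higher in WT and 17.5% in RNF138-/-. The neutrophil markers *S100a8* and *S100a9* moved along with *Nos2*, at 15.8 to 153.8 CPM in CAC and at most 1.75 in colitis. The sum over 12 macrophage and monocyte markers was 208.7 to 530.2 CPM in CAC and 442.8 to 752.7 in colitis, ranges that overlap. In RNF138-/- single markers were higher in CAC, *Cd68* at 21.6 to 28.3 CPM against 8.77 to 11.8 in colitis and *Itgam* at 29.5 to 44.9 against 6.64 to 21.7, while *Adgre1* was at 13.0 to 17.3 against 17.1 to 37.5 and the mean of the sum went from 576.9 to 455.5. The share of counts on processed pseudogenes was 0.378% to 0.545% in CAC and 0.128% to 0.176% in colitis. The part of neutrophils, of macrophages and of RNA preparation in the change was not tested, and the labels name no batch.

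From CAC to organoids *Nos2* fell by 2.73 in WT (SE 0.53, adjusted p = 0.000384) and by 3.73 in RNF138-/- (SE 0.55, adjusted p = 2.82e-05). *S100a9* went from 20.5 to 153.8 CPM in CAC to at most 0.0747 in organoids, while the sum of the 7 neutrophil markers stood at 45.7 to 82.1 CPM in organoids and overlapped WT CAC (57.8 to 225.2). It was below RNF138-/- CAC (171.1 to 403.2). In the same step the mean macrophage and monocyte sum went from 377.6 to 58.9 in WT and from 455.5 to 90.2 in RNF138-/-. The part of these cells in the fall was not tested. The difference of its genotype effect was -2.87 for organoids minus colitis (SE 0.77, adjusted p = 0.0348), where 2.58% of all genes passed in that direction. That call was lost in 8 of 12 fits that left out 1 library, at -3.10 to -2.31 with adjusted p up to 0.0954. They were the fits without WT colitis replicates 1 or 3, RNF138-/- colitis replicate 1, WT organoid replicates 1 or 3, or any RNF138-/- organoid library. For CAC minus colitis it was -1.87 (SE 0.74, adjusted p = 0.101), and it passed by DESeq2 (-1.95, adjusted p = 0.0471), without a filter on low counts (-1.84, adjusted p = 0.0415) and without WT CAC replicate 2 (-2.25, adjusted p = 0.0414). For organoids minus CAC none of the 8 genes passed, against 23.3% of all genes, with 3 of 8 at an unadjusted p under 0.05, against 36.8% of all genes.

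*Gpx2* encodes the glutathione peroxidase of the gut epithelium and reduces hydroperoxides. It (ENSMUSG00000042808.8, chr12:76792333-76795554, minus strand) was at 379.6, 426.4 and 297.1 CPM in WT colitis and at 1051, 708.8 and 184.2 in RNF138-/- colitis. RNF138-/- replicate 3 was the lowest of these 6 libraries and the other RNF138-/- libraries the highest. In CAC *Gpx2* was at 661.7, 420.2 and 335.4 CPM in WT and at 1314, 789.3 and 579.8 in RNF138-/-. The differences were 0.81 in colitis (SE 0.52, adjusted p = 0.665) and 0.87 in CAC (SE 0.38, adjusted p = 0.160). That in colitis was 0.28 without RNF138-/- replicate 1 (adjusted p = 0.954) and 1.25 without RNF138-/- replicate 3 (adjusted p = 0.0646).

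In organoids *Gpx2* stood at 351.5, 606.6 and 506.1 CPM in WT and at 380.9, 258.8 and 356.2 in RNF138-/-, with a difference of -0.60 (SE 0.23, adjusted p = 0.0738). From CAC to organoids it was 0.05 in WT (SE 0.45, adjusted p = 0.936) and fell by 1.43 in RNF138-/- (SE 0.46, adjusted p = 0.0142). The RNF138-/- call was lost without RNF138-/- CAC replicate 1 (-1.05, adjusted p = 0.0768) or RNF138-/- organoid replicate 2 (-1.27, adjusted p = 0.0596). The difference of the genotype effects, organoids minus CAC, was -1.48 (SE 0.65, adjusted p = 0.109), and -1.91 with library size scaling (adjusted p = 0.0320). For organoids minus colitis it was -1.37 (adjusted p = 0.199), and -1.83 without RNF138-/- colitis replicate 3 (adjusted p = 0.0307), and for CAC minus colitis 0.10 (adjusted p = 0.942). From colitis to CAC *Gpx2* was at 0.36 in WT and 0.46 in RNF138-/- (adjusted p = 0.609 and 0.401). *Gpx2* shares 6.03% of its windows with other transcripts, mostly its processed pseudogene *Gpx2-ps1*.

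*Cybb* (ENSMUSG00000015340.10, chrX:9435252-9487771, minus strand) stood at 14.3 to 26.6 CPM in colitis and 18.5 to 33.1 in CAC. In the main fits no genotype difference in tissue exceeded 0.21 log2 units (adjusted p = 0.856 in colitis and 0.897 in CAC). Among the alternatives *Cybb* reached 0.39 in colitis and 0.30 in CAC. In organoids it was at 0.634, 1.36 and 7.22 CPM in WT and at 4.35, 2.81 and 3.81 in RNF138-/-. It fell by 3.06 from CAC to organoids in WT (SE 0.57, adjusted p = 0.000267) and by 2.91 in RNF138-/- (SE 0.56, adjusted p = 0.000359). Without WT organoid replicate 3 the WT change was -4.72, and the organoid genotype difference, 0.21 with all libraries (adjusted p = 0.844), was 1.87 (adjusted p = 0.0195). From colitis to CAC *Cybb* was at 0.37 in WT and 0.26 in RNF138-/- (adjusted p = 0.641 and 0.679). Its differences of genotype effects were -0.11 (CAC minus colitis), 0.15 (organoids minus CAC) and 0.04 (organoids minus colitis), with adjusted p of 0.946, 0.927 and 1.00, and the second was 1.83 (adjusted p = 0.0204) without WT organoid replicate 3.

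The macrophage markers stood at 47.7 to 99.6 CPM in sum in organoids. Of 12, *Fcgr1*, *Cd163* and *C1qc* were at 0 in all WT organoid libraries. In WT organoid replicate 3, the one with the most *Cybb* and *Nox1*, *Adgre1* was at 0.0675 CPM, *Itgam* at 0.540 and *Csf1r* at 3.24. The macrophage marker *Cd68* was at 21.2 CPM there, the highest of the organoid libraries (11.7 to 21.2) and above WT CAC (7.95 to 19.6). The part of macrophages in its *Cybb* level was not tested. The genes most like *Cybb* across the 18 libraries were *Myb* (r = 0.97), *Mki67* (0.97) and *Shmt1* (0.96), out of 12426 genes with a mean of at least 5 CPM. As deviations from the group means they were *Myb* (0.93), *Shmt1* (0.91) and *Cdca7* (0.90).

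**Figure D4:**
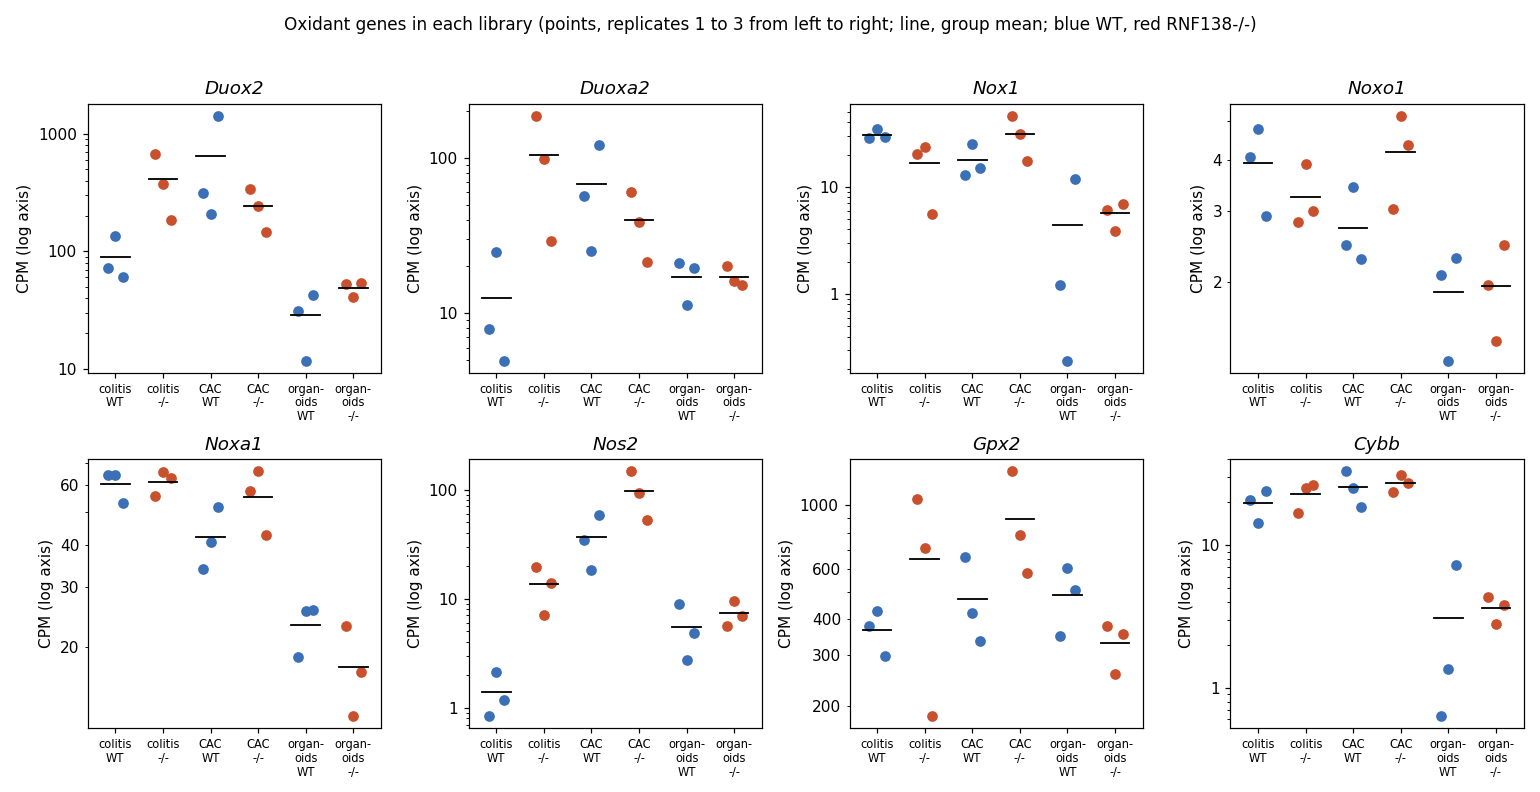
CPM of each of the 8 genes in the 18 libraries on log axes that differ in range (points are replicates 1 to 3 from left to right in each group, lines are group means, blue WT, red RNF138-/-). *Nos2* rises from colitis to CAC in both genotypes, *Cybb* and *Noxa1* are lower in all organoid libraries than in tissue, and WT organoid replicate 3 stands above the other WT organoids for *Nox1* and *Cybb*.

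Per kilobase of exon, which allows for gene length, *Gpx2* had the highest mean in every group, from 103.0 CPM per kilobase in RNF138-/- organoids to 277.6 in RNF138-/- CAC. The full exon length was the divisor. Of it, 2122 of 3013 bases in *Noxo1* and 682 of 1592 in *Duoxa2* overlap a gene on the other strand. The ranks of these 2 genes are thus uncertain. In WT colitis *Gpx2* (114.1 ± 20.3, SD, n = 3) was followed by *Noxa1* (37.5 ± 4.03), and both stood apart from the next gene. *Duox2* (13.2 ± 6.01), *Nox1* (9.27 ± 0.97), *Duoxa2* (7.85 ± 6.65) and *Cybb* (3.41 ± 0.87) each overlapped the one before or after. *Noxo1* (1.30 ± 0.31) and *Nos2* (0.314 ± 0.152) came last, each apart from its neighbours. In WT CAC *Duox2* (96.1 ± 99.8) and *Duoxa2* (42.4 ± 30.4) ranked next to *Gpx2* with overlap, and *Nos2* had moved up to the fifth place at 8.40 ± 4.65. In RNF138-/- CAC *Nos2* was at 22.2 ± 10.8 and overlapped *Duoxa2* (25.2 ± 12.3). With the length of the longest transcript, 6 of 8 genes kept their rank over the 6 groups.

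The neighbouring pathway genes fell into 6 lists. None of the 55 listed genes tested was called between genotypes in colitis, where 0.0902% of all genes were. In CAC 4 of 56 listed genes tested were called (7.14%, against the 5.37% of all genes), and 3 of 56 with library size scaling (4.02% of all genes). Of these, 1 of 11 nitric oxide and arginine genes (*Nos1*, the neuronal synthase, lower with means of 0.386 against 13.5 CPM, adjusted p = 0.0358), 2 of 22 antioxidant genes and 1 of 6 inducing cytokines and factors were the 4 called. *Slc7a11*, the cystine carrier, rose by 2.24 (adjusted p = 0.0487, and 0.0532 with library size scaling), the thioredoxin *Txn1* fell by 1.43 (adjusted p = 0.0272) and the cytokine *Il1b* rose by 2.05 (adjusted p = 0.0343). *Nos1* moved together with the smooth muscle markers given above, and their part in it was not tested. B and plasma cell markers (124.8 to 215.2 CPM in RNF138-/- CAC against 1505 to 2267 in WT) also lay apart. So did fat markers (0.607 to 1.28 against 19.4 to 32.25) and the *S100a8* and *S100a9* given with *Nos2*. The fibroblast and endothelium sums overlapped. The part of these cell types in the calls was not tested. In organoids 6 of 51 listed genes tested were called (11.8%, against the 15% of all genes), 4 higher and 2 lower, and with library size scaling 4 higher and 5 lower (16.9% of all genes called). Among the 6 were *Nox4*, the oxidase of mesenchymal cells (2.37 higher, adjusted p = 0.00301), beside the fibroblast markers that were also higher in RNF138-/-. Also among them were *Sod3* (2.16) and *Il1b* (3.41, means of 1.84 against 0.182 CPM), which rose, and the quinone reductase *Nqo1* and glutathione reductase *Gsr*, which fell by 1.88 and 1.16.

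From colitis to CAC 8 of 57 listed genes were called in WT (14%, against 13.6% of all genes) and 16 of 57 in RNF138-/- (28.1%, against 37.1%). Several measures moved with these lists. They were *S100a8* and *S100a9* and the processed pseudogene share given with *Nos2*, and in RNF138-/- the smooth muscle markers (4998 to 14540 CPM in colitis, 113.3 to 242.2 in CAC) and the B and plasma cell markers (6 genes, 1538 to 2684 and 124.8 to 215.2). Their part in the list changes was not tested. *Gch1*, which starts the synthesis of the synthase cofactor tetrahydrobiopterin, rose by 1.14 in WT (adjusted p = 0.00476). Of 6 inducing cytokines and factors tested, the 2 called in either genotype were *Tnf* and *Il1b*, both higher, by 2.22 and 2.03 in WT and by 1.94 and 3.35 in RNF138-/-, beside the 9.78% and 17.5% of all genes called higher. *Slc7a11* and the heme oxygenase *Hmox1* rose in both genotypes, the first by 2.62 and 4.13 and the second by 1.17 and 2.29, and *Txn1* fell by 1.05 and 1.71. In RNF138-/-, 3 of 8 other peroxidases were lower, *Gpx8*, *Gpx4* and *Gpx7*, against 19.6% of all genes, and 2 of 8 with library size scaling. That scaling also called 4 of 6 cytokines and factors higher in RNF138-/- (against 2), 5 of 11 nitric oxide and arginine genes higher and 2 lower (against 2 and 2) and 6 of 22 antioxidant genes higher and 3 lower (against 3 and 3), while the shares of all genes were 24.7% higher and 15.1% lower. The medians of the 8 peroxidases were -0.21 in WT and -0.98 in RNF138-/-, beside 0.04 over all genes in each. Of 3 other NADPH oxidase genes, *Duoxa1* was higher in WT (2.38, adjusted p = 0.0211).

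From CAC to organoids most partners of *Cybb* were lower along with it. Of 7 phagocyte oxidase partners, 5 were called lower in each genotype, beside the 26.8% and 26.5% of all genes, with list medians of -2.07 and -2.39, and 1 was called higher in WT. The macrophage and monocyte marker sum fell along with them, from means of 377.6 to 58.9 CPM in WT and from 455.5 to 90.2 in RNF138-/-, and its part was not tested. That one, named after its values were seen, was *Cyba*, the membrane partner that *Nox1* also uses, at means of 304.2 CPM in WT organoids against 85.2 in WT CAC. *Rac2*, *Ncf4* and *Ncf1* are all best known from blood cells. The means of *Rac2* were 0.0798 CPM in WT organoids against 25.8 in WT CAC and 0.609 against 17.4 in RNF138-/-, and those of *Ncf4* 0.0577 against 8.83 and 0.384 against 6.65. *Ncf1* changed by -4.21 in WT and by -4.32 in RNF138-/-. Of 8 other peroxidases, 4 were higher and 1 lower in WT and 5 were higher in RNF138-/-, beside 17.5% and 17.9% of all genes called higher. *Gpx8*, a peroxidase of the endoplasmic reticulum, was 2.80 and 4.62 higher. Of 22 antioxidant genes, 9 were higher in WT and 8 in RNF138-/- and none was lower. With library size scaling the peroxidase counts in RNF138-/- were 2 higher and 1 lower. The antioxidant counts were then 5 higher and 4 lower in RNF138-/-, where the list median turned from 0.41 to -0.21, and 8 higher and 0 lower in WT. The shares of all genes were then 11.2% higher and 42% lower in RNF138-/- and 14% higher in WT. The antioxidant genes were led by *Hmox1* (4.62 higher in WT) and *Sod3* (4.08 higher in RNF138-/-). *Slc7a2*, an arginine carrier, and *Ass1*, which remakes arginine, rose by 4.48 and 2.99 in WT and by 3.87 and 3.31 in RNF138-/-, while 4 and 3 of the 11 genes of their list were lower. Of the other NADPH oxidases *Nox4* was 2.05 higher in WT and 3.54 higher in RNF138-/-. Of 6 inducing cytokines and factors, 2 were higher and 3 lower in WT and 1 higher and 3 lower in RNF138-/-, with the cytokine *Il6* 9.27 and 7.61 higher. The fibroblast marker sums moved with these lists, and their part in the list changes was not tested.

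**Figure D5:**
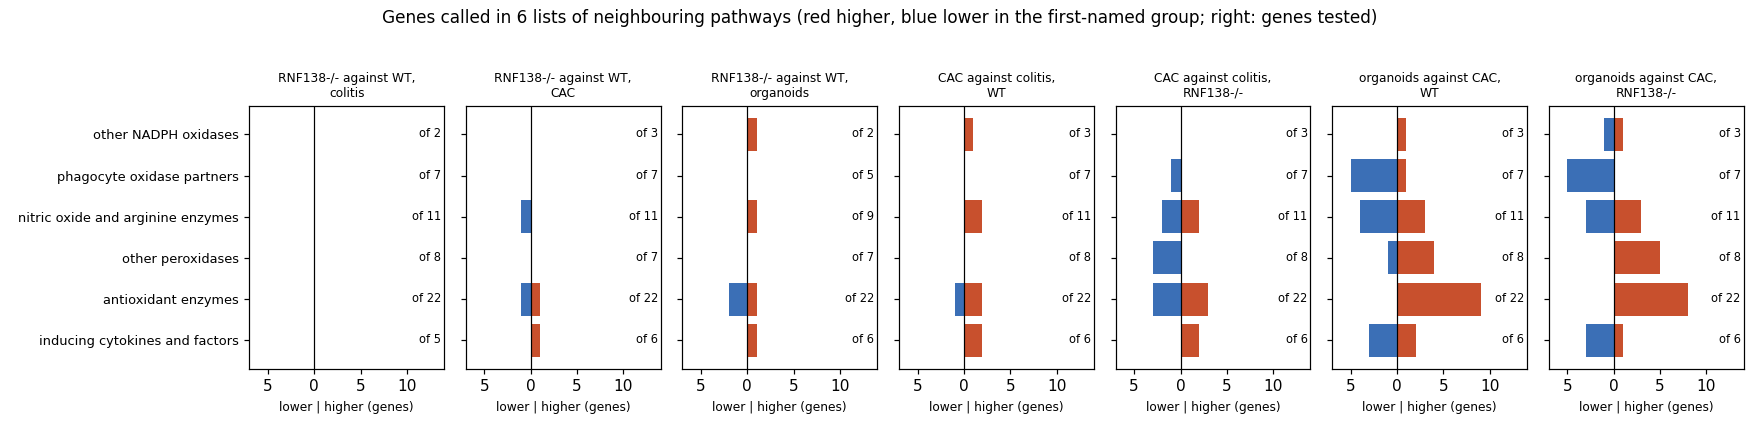
Number of genes called lower (blue, left of 0) and higher (red, right of 0) in 6 lists of pathway genes for 7 comparisons, with the number tested at the right of each row. In organoids against CAC, phagocyte oxidase partners lie to the left (5 lower in each genotype) and antioxidant enzymes to the right (9 and 8 higher, or 8 and 5 with library size scaling, which also called 4 lower in RNF138-/-).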

How the data were processed

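The authors deposited counts, raw whole-number read counts per gene for 18 libraries, made according to the submitters' processing notes with STAR 2.6.1d and HTSeq 0.11.2 on mm10. The counting strand is not given in the sources used here, and the Illumina TruSeq RNA kit does not mark it. A table of the authors' own log2 fold changes and p-values was not used. Groups came from the labels, which name no batch or date. Of 36757 genes, 36700 (99.84%) matched GENCODE by identifier, the source of coordinates, exon lengths and shared 50-base windows.

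CPM, on a scale of 1000000, were scaled by TMM over the 18 libraries. Genes passing filterByExpr were tested with edgeR 4.0.16 (glmQLFit, glmQLFTest) and Benjamini-Hochberg adjustment over all genes tested. Calls required a 2-fold change besides an adjusted p under 0.05, except for differences of genotype effects, which needed the adjusted p alone. Genotypes were fitted within each model (6 libraries), and models and differences in 1 fit of 6 groups. Exact permutation of 3 against 3 libraries cannot give a two-sided p below 0.1 and added no call. log2 CPM for correlations used a prior count of 2. On simulated counts with 200 genes changed 4-fold, 191 (16328 genes, colitis), 155 (17519, CAC) and 197 (15020, organoids) were recovered between genotypes. False calls numbered 16, 13 and 10. In the real colitis libraries *Duox2*, *Duoxa2* and *Nos2* differed by 4.61-fold, 8.31-fold and 9.68-fold and were not called in the main fit. The recovered counts are thus not read as the power to call these genes.

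Alternatives were 1 fit of all libraries or of the 6 compared, DESeq2 1.42.0, RLE or library size scaling, no filter, the replicate number as a block and each library left out. The libraries low in *Hoxb13* were left out together after the data were seen. The 8 genes and all lists were chosen with earlier results of these data known. All 8 genes are named in every comparison. From each list at most 4 called genes with the largest absolute log2 fold change are named, less a few that are not reported here, and for likeness the 3 genes with the highest Pearson correlation.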

Additional observations from a re-analysis of the deposited data

Results flagged for a closer look

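Tests of the difference between models singled out 3 results. The genotype difference of *Duox2*, higher in RNF138-/- colitis libraries and not in RNF138-/- CAC libraries, differed between CAC and colitis by -3.63 log2 units (edgeR, adjusted p = 0.0170). That of *Duoxa2* differed by -3.81 (adjusted p = 0.0158). *Duox2* lost the call without WT CAC replicate 3 (-2.32, adjusted p = 0.0545), and the fit that left out the 3 libraries low in *Hoxb13*, with 1 RNF138-/- colitis library remaining, gave -3.03 (adjusted p = 0.0121) for *Duox2* and -3.94 (adjusted p = 0.00845) for *Duoxa2*. The genotype difference of *Nos2* differed between organoids and colitis by -2.87 (adjusted p = 0.0348), a call lost in 8 of 12 fits that left out 1 library. No gene's groups had the 4 or more libraries needed to test for a library that stands apart.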

How the results depend on the processing

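Counts of called genes out of 8 that moved by more than 1.5 times, or from 0, come first. Shares of all genes are given for some of these settings only. The counts are thus not read as results about the 8 genes. Between genotypes in colitis, against 0, 1 fit of all 18 libraries called 1, no filter 3 and DESeq2 3, and leaving out 1 library 0 to 3. In CAC, against 0, the fit of 18 called 1. In organoids, against 0, leaving out 1 library called 0 to 3. For CAC against colitis in RNF138-/-, against 1, no filter and DESeq2 called 2, and leaving out 1 library 1 to 2. For organoids against CAC, leaving out 1 library called 3 to 6 in WT (against 5) and 4 to 7 in RNF138-/- (against 7). For the difference CAC minus colitis, against 2, it called 1 to 3. For organoids minus CAC, against 0, library size scaling called 2, no filter and DESeq2 1 each, and leaving out 1 library 0 to 1. Of 19390 genes, that scaling called 1663 higher and 4459 lower there. For organoids minus colitis, against 1, library size scaling, no filter and DESeq2 called 2 each, and leaving out 1 library 0 to 3. Library size scaling called 433 of all genes higher and 797 lower there. One fit of 15 libraries, without the 3 low in *Hoxb13*, in which the lone RNF138-/- colitis library is assumed to vary like the other groups, called 4 in colitis, 1 in CAC and 3 for CAC against colitis in RNF138-/-. Smaller moves changed calls too. CAC against colitis in WT fell to 2 (against 3) in the fit of 6 libraries and without WT colitis replicate 1 or 3 or WT CAC replicate 3. Organoids against CAC rose to 8 in RNF138-/- with library size scaling, no filter and the fit of 6, and fell to 4 in WT with the block and the fit of 6. CAC minus colitis rose to 3 with no filter and DESeq2.

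Signs turned only for estimates that were not called. Leaving out 1 library, *Noxa1* ran from -0.0695 to 0.0876 between genotypes in colitis and from -0.29 to 0.0137 for CAC against colitis in RNF138-/-. *Cybb* ran from -0.11 to 0.27 between genotypes in CAC and from -0.27 to 1.87 in organoids, and in the differences from -0.34 to 0.0786 (CAC minus colitis), -0.34 to 1.83 (organoids minus CAC) and -0.45 to 1.68 (organoids minus colitis). Between genotypes in organoids *Duoxa2* ran from -0.26 to 0.14, *Nox1* from -0.23 to 2.81 and *Noxo1* from -0.20 to 0.20, and *Nox1* from -1.02 to 2.06 for organoids minus CAC. *Gpx2* ran from -0.0366 to 1.00 for CAC against colitis in RNF138-/-, from -0.15 to 0.36 for organoids against CAC in WT and from -0.37 to 0.64 for CAC minus colitis (-0.54 with RNF138-/- colitis replicate 3 and WT CAC replicate 3 both left out). Library size scaling gave -0.00505 for *Noxa1* in colitis and 0.16 for CAC against colitis in RNF138-/-, -0.12 for *Gpx2* in organoids against CAC in WT, and for *Cybb* -0.0324 in organoids and 0.10, -0.33 and -0.23 in the 3 differences. No filter gave -0.00877 for *Noxa1* in colitis. *Noxo1* in organoids was 0.0383 in the fit of 18, 0.0200 by RLE, 0.0141 without a filter and 0.0208 by DESeq2. The fit of 15 gave -0.12 for *Noxa1* and -0.24 for *Cybb* in colitis, -0.0913 for *Cybb* in CAC, -0.24 and -0.16 for *Gpx2* in CAC against colitis in RNF138-/- and organoids against CAC in WT, and -0.79 for *Gpx2* and 0.15 for *Cybb* in CAC minus colitis.

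The replicate numbers share only a number: same-numbered libraries correlated at -0.11 to 0.38, and not every library correlated best with its own number. With the replicate block *Noxo1* in organoids was 0.0210, *Nos2* for organoids minus colitis lost its call, leaving 0 of 8, and *Nox1* for organoids against CAC in WT lost its call (adjusted p = 0.0569). It changed no other call. A term for sex could not be fitted, since it is the same split as genotype in organoids and does not vary in tissue. Depth limits *Noxo1*, *Nox1* and *Cybb* in WT organoids and *Nos2* in WT colitis.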

Other observations

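*Gpx2-ps1*, a processed pseudogene of *Gpx2* at chr7:100264675-100265245 of mm10, was at 11.7 to 28.0 CPM in WT CAC and at 23.5 to 77.0 CPM in RNF138-/- CAC. In colitis and organoid libraries it was at 0.155 to 1.36 CPM. Its CPM came to 3.47% to 5.86% of that of *Gpx2* in the 6 CAC libraries and to 0.0395% to 0.224% in the other 12, although the *Gpx2* levels of the models overlapped. Of its 571 bases, 36.8% of the 50-base windows match *Gpx2*. The gene was singled out after its values were seen. All processed pseudogenes together took 0.378% to 0.545% of counts in the CAC libraries and 0.128% to 0.272% in the other 12. The part of RNA preparation in the *Gpx2-ps1* levels was not tested.

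The genes most like *Nos2* across the 18 libraries were *S100a9* (r = 0.87), *Snx19* (0.87) and *Gm9625* (0.87), and as deviations from the group means *Lpar1* (0.81), *Penk* (0.80) and *9030624J02Rik* (0.77). Those most like *Duox2* were *Mov10* (0.93), *Muc13* (0.91) and *Trim40* (0.90), with *Oraov1*, *Flii* and *Clcn2* as deviations (0.92 to 0.88). For *Duoxa2* they were *Duox2*, *Ang4* and *Pnp2* (0.83 to 0.78), with *Gm14137*, *Zcchc8* and *Csnk2b* as deviations (0.91 to 0.89). For *Nox1* they were *Tedc1*, *Dlgap5* and *Mcm6* (0.92 to 0.89), with *Tedc1*, *Igkc* and *Racgap1* as deviations (0.90 to 0.86), and for *Noxo1* *Nbeal2*, *Zscan20* and *Fanca* (0.92 to 0.88), with *Plekhg3*, *Zer1* and *Gtf2ird1* as deviations (0.90 to 0.89). For *Noxa1* they were *Senp8*, *Rassf4* and *Gm53* (0.96 to 0.94), with *Acnat1*, *Ffar2* and *2810459M11Rik* as deviations (0.88 to 0.81). For *Gpx2* they were *Kat2a*, *Rangap1* and *Nme1* (0.87 to 0.84), with *Wrap53*, *Dctn3* and *Rangap1* as deviations (0.95 to 0.93). Libraries of a model share depth and cell makeup, and these correlations are a description.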
